A study of Mus musculus with 6 samples.

Results

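The mitochondrial ribosomal protein genes of the mouse optic nerve were compared between hND6 and mCherry libraries. They were taken by symbol, as protein-coding genes of the deposited gene table named Mrpl or Mrps followed by a digit. The rule found 78 of the 52636 genes in the table, of which 49 carry the large subunit symbol Mrpl and 29 the small subunit symbol Mrps. RNA of the optic nerve, the bundle of retinal ganglion cell axons with its glia, was sequenced in 6 libraries after removal of ribosomal RNA. The treatment label of 3 libraries, titled hND6, is Mutant human ND6T14484C, and that of the other 3 is mCherry, a red fluorescent protein. ND6 is a complex I subunit that is normally encoded in mitochondrial DNA, and the labelled change is known in humans from Leber hereditary optic neuropathy. A protocol text on lentivirus with the mutant gene, injected into the eye, stands beside both groups, so what the mCherry group received is known from its label only. Strain, age, sex, dose, time after injection and whether each library is 1 animal are not stated in the labels. The p-values therefore rest on the scatter of these 6 libraries, some of which may be technical. The library mCherry 3 stood apart from the other 5 over all genes and held more RNA of forebrain neuron markers than they did, so the main counts are also given without it.

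Mitochondria carry their own ribosomes, which translate the few proteins that mitochondrial DNA encodes, all of them subunits of the respiratory chain and the ATP synthase. The ribosomal RNAs are transcribed in the organelle, but every ribosomal protein is encoded in the nucleus, made in the cytosol and imported. Some of these proteins descend from bacterial ribosomal proteins, and the others are specific to mitochondria. The small subunit holds the decoding site for the messenger RNA, and the large subunit joins the amino acids. Loss of single members in humans is known to cause combined respiratory chain deficiencies.

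No member passed the test, and the large subunit genes lay slightly higher in hND6 than the small subunit genes did. Levels are in FPKM, fragments scaled by exon length and by the reads of the library, and fold changes are hND6 over mCherry on the log2(FPKM + 0.5) scale. Genes averaging under 0.5 FPKM were not tested. Of the 75 members that passed this filter, 0 had an adjusted p below 0.05 in limma, where 7 of 16157 tested genes did (0.0433%), and the smallest adjusted p of a member was 0.155. At an unadjusted p below 0.05, 11 members lay higher in hND6 (9.11% of all tested genes did) and 3 lay lower (6.05% of all tested genes did). limma's voom on whole reads recovered from the FPKM also called 0 members. In that fit 11 members lay higher and 3 lower at an unadjusted p below 0.05, where 2464 of 16157 genes lay either way. The counts of members at this level depend on the scaling. With each library scaled to a constant sum of FPKM (TPM scale), 3 members lay higher and 5 lower at an unadjusted p below 0.05, where 3.36% of all tested genes lay higher and 13.5% lower. With the trend of the fold change with gene span removed, 2 lay higher and 3 lower, against 4.54% and 3.67% of all tested genes. In 14 members all 3 hND6 libraries lay above all 3 mCherry libraries, which is 18.7% of the tested members against 12.6% of all tested genes. In 5 members all 3 lay below, which is 6.67% of the members against 10.2% of all tested genes. Overlap was counted with the deposited values only, and not on the TPM scale or with the span trend removed. In whole optic nerve, fewer cells of a type and less RNA per cell cannot be told apart.

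Large and small subunit differed in how many members lay higher. In the large subunit, 41 of 46 tested members had a fold change above 0, with a median log2 fold change of 0.16. In the small subunit, 15 of 29 did, with a median of 0.01. Over all tested genes 48.6% lay higher in hND6 and the median was -0.01. On the TPM scale the median of all tested genes moved to -0.14, 25 of 46 large and 8 of 29 small subunit members lay higher, and the medians were 0.025 and -0.13. The difference between the medians, large minus small, was 0.16 with the deposited values and also 0.16 on the TPM scale. Without mCherry 3, 42 of 46 large and 20 of 29 small subunit members lay above 0, with medians of 0.23 and 0.11. Single members ran from -0.39 for Mrps9 to 0.66 for Mrpl52.

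**Figure D1:**
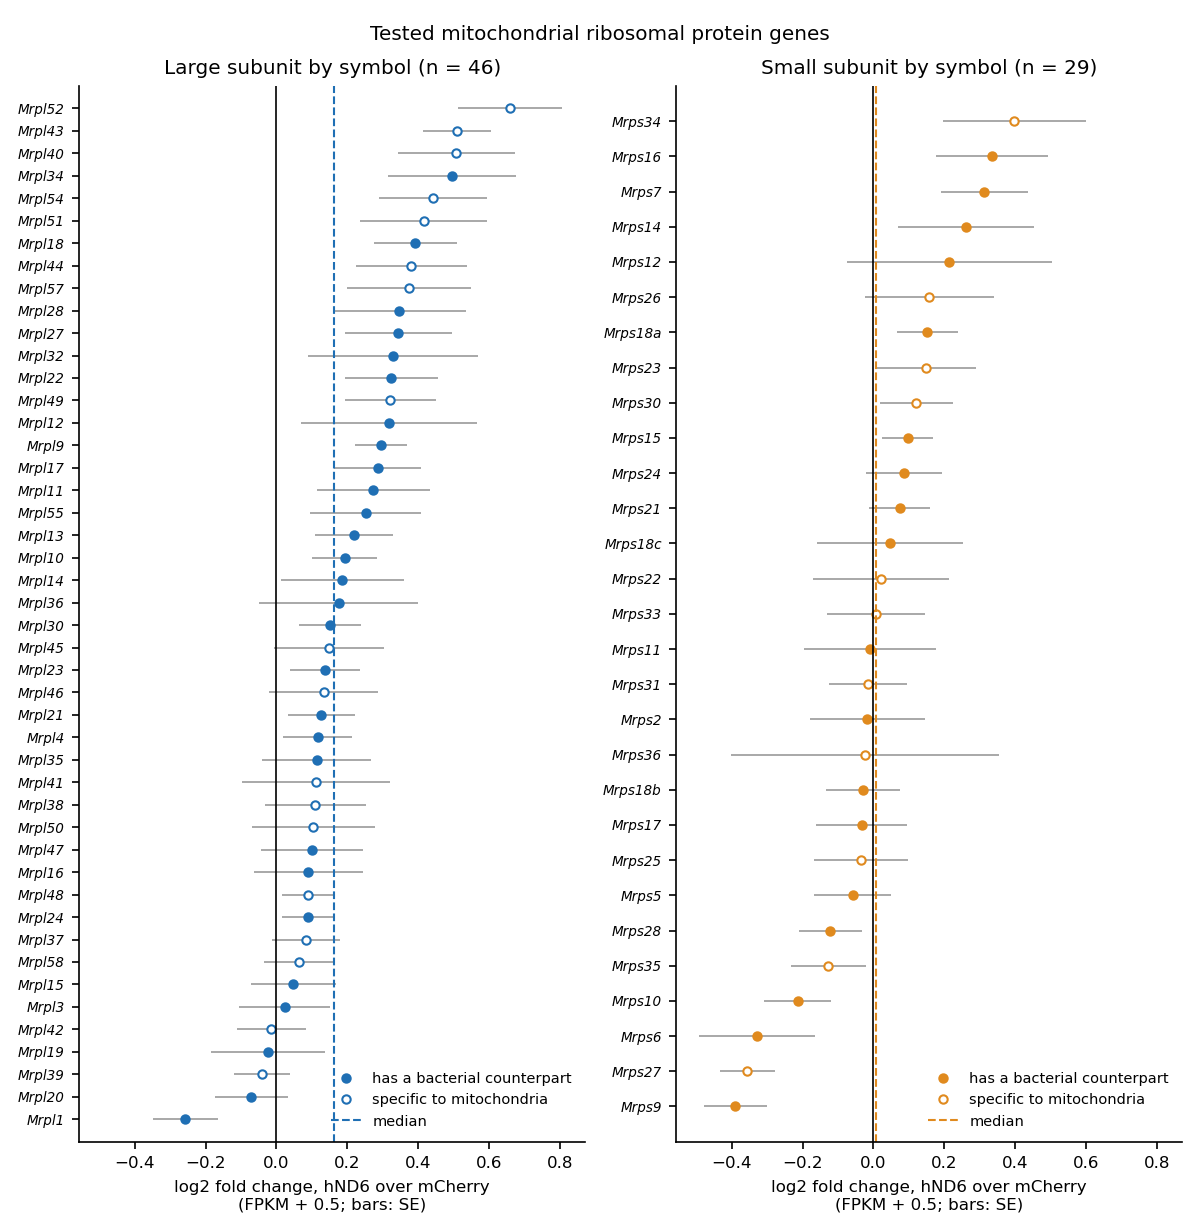
Log2 fold change of hND6 over mCherry for each tested member, large subunit on the left (n = 46) and small subunit on the right (n = 29), with bars for the standard error of limma. Filled points have a bacterial counterpart, open points are specific to mitochondria and dashed lines are the medians, 0.16 and 0.01 (0.025 and -0.13 on the TPM scale).

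Mean levels over the 6 libraries ran from 2.08 FPKM (Mrpl32) to 42.0 FPKM (Mrps6) among the tested members, with medians of 9.80 FPKM for the large and 8.32 FPKM for the small subunit. Together the members took 23594 to 41728 reads per library, 0.108 to 0.125% of the reads assigned to genes. The tested member of lowest count was Mrps36, with 50 reads in its lowest library and 591 reads over all 6. Its protein was first listed with the small subunit and is now placed in the oxoglutarate dehydrogenase complex.

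The other 3 members were not tested. Mrpl2, Mrpl33 and Mrpl53 are listed at 0 in all 6 libraries. Each lies wholly inside another gene on the same strand, Mrpl2 in the lincRNA Gm26904, Mrpl33 in Gm43809 and Mrpl53 in Gm42688. How reads of overlapping genes were counted is not stated in the sources used here, so these zeros are not read as absence of the transcripts. Genes on the same strand also cover 57.6% of the span of Mrps6 (Slc5a3, itself listed at 0, and Gm16310) and 40.1% of that of Mrps18c. A further 5 genes with Mrpl or Mrps symbols are processed pseudogenes and were left out by the rule. Of these Mrpl23-ps1 shares a stretch of 507 bases with Mrpl23 at 100% identity and had 129 reads in hND6 and 120 reads in mCherry.

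The promoter sequences are shown because many genes of this kind are known to carry binding words for the factors NRF1, GABP (of the ETS family) and YY1, which drive many nuclear genes for mitochondrial proteins. The windows hold 250 bases before to 50 bases after the gene start, from RefSeq on GRCm38.p6, and 69 of the 78 members were matched, while Mrpl4, Mrpl13, Mrpl15, Mrpl19, Mrpl38, Mrpl54, Mrps28, Mrps34 and Mrps35 were not. The words searched on both strands were CGCATGCG for NRF1, CCGGAAG for ETS factors and AAGATGGC for YY1. The NRF1 word stood in 7 member windows (10.1%), against 2.66% of the 16339 protein-coding gene windows. The ETS word stood in 25 (36.2%) against 12.3%, and the YY1 word in 12 (17.4%) against 3.30%. At least 1 of the 3 stood in 37 member windows (53.6%) against 17.0% of all, in 24 of 43 large and 13 of 26 small subunit windows, and hits of different words overlapped in 0 member windows. The cytosolic ribosomal protein genes had similar shares for the ETS word (36.9% of 65 windows) and for at least 1 word (47.7%). Their shares were 3.08% for the NRF1 word and 7.69% for the YY1 word. A match is a run of letters and not a site shown to be bound. The 5 windows printed first belong to the 5 members of smallest p, and the last covers the starts of the paired genes Mrps11 and Mrpl46. Each is written 5′ to 3′ on the gene's strand with the searched words in capitals. The windows are Mrpl43 (chr19:45006393-45006692, minus strand), Mrpl52 (chr14:54426659-54426958, plus), Mrpl9 (chr3:94443086-94443385, plus), Mrps27 (chr13:99344536-99344835, plus), Mrps9 (chr1:42850983-42851282, plus) and Mrps11 (chr7:78782881-78783180, plus).
Mrpl43: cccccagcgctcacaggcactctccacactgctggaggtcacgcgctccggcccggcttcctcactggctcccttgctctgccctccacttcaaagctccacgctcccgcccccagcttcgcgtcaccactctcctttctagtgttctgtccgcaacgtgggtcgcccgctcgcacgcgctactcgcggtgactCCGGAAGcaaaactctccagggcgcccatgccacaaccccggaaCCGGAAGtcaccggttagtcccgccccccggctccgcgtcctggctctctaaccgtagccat
Mrpl52: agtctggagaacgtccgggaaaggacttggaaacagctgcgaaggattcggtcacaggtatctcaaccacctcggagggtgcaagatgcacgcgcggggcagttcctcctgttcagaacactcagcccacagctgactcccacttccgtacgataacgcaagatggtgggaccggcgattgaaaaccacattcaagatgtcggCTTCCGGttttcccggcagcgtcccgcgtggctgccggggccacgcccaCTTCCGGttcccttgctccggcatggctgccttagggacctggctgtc
Mrpl9: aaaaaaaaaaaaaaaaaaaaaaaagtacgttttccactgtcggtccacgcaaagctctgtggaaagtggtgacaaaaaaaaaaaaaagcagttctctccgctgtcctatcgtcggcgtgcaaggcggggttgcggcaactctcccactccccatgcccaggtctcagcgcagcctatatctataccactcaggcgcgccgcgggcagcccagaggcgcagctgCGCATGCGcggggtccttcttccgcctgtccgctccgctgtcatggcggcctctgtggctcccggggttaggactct
Mrps27: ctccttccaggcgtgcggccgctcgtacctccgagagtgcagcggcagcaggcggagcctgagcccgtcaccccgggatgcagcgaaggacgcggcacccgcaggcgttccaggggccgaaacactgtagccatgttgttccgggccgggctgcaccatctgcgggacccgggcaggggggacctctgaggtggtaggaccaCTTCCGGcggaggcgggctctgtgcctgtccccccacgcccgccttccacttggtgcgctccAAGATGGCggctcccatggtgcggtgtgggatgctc
Mrps9: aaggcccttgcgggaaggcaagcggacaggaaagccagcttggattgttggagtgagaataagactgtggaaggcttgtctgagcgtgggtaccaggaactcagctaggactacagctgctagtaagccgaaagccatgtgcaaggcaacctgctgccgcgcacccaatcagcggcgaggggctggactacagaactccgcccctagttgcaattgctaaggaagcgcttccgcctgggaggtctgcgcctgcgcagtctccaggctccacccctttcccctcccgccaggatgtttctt
Mrps11: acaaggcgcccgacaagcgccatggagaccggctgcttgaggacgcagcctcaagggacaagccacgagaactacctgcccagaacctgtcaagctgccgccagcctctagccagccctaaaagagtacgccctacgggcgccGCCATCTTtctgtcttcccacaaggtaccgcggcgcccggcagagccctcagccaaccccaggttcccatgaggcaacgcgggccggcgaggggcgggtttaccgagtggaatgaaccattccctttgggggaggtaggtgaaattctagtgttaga

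Mrpl43 and Mrpl52 hold 2 ETS words each, Mrpl9 holds the NRF1 word, Mrps27 holds an ETS word and the YY1 word, and none of the 3 stands in the Mrps9 window. Among the tested members with a matched window, 30 of 35 with at least 1 word had fold changes above 0 (median 0.15 on the log2 scale), and 20 of 31 with none did (median 0.10). On the TPM scale 19 of 35 and 11 of 31 did, and with the span trend removed 21 of 35 and 13 of 31.

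Mrpl43 had the smallest p of all members. It encodes a large subunit protein specific to mitochondria, on chromosome 19 (45005014 to 45006442, minus strand, mm10). Mrpl43 stood at 13.3, 13.3 and 15.2 FPKM in the hND6 libraries, against 9.04, 10.4 and 9.46 FPKM in the mCherry libraries. The groups do not overlap. Its log2 fold change was 0.51 ± 0.10 (SE; limma adjusted p 0.155), and 0.17 with the span trend removed.

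Mrpl52, another mitochondria-specific protein of the large subunit, had the largest fold change of the tested members. The gene lies on chromosome 14 (54426972 to 54429749, plus strand). Mrpl52 stood at 27.9, 37.5 and 39.7 FPKM in hND6, against 21.4, 20.3 and 23.6 FPKM in mCherry. Each hND6 library was above each mCherry library, and hND6 1 was the closest to them. The log2 fold change was 0.66 ± 0.15 (SE; limma adjusted p 0.178), and 0.40 with the span trend removed.

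Mrpl9, counterpart of the bacterial protein L9, had the smallest standard error among the large subunit members named here for their p. It stood at 14.3, 14.4 and 13.6 FPKM in hND6, against 11.3, 11.5 and 11.3 FPKM in mCherry. The groups are well apart, and limma gave a log2 fold change of 0.30 ± 0.07 (SE) at an adjusted p of 0.197. That fold change was 0.17 with the span trend removed. The gene lies on chromosome 3 (94443337 to 94451130, plus strand).

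Mrpl18 and Mrpl40 also had all hND6 libraries above all mCherry libraries. Mrpl18 is the counterpart of the bacterial protein that binds 5S ribosomal RNA, and it averaged 15.0 ± 1.63 FPKM in hND6, against 11.3 ± 1.12 FPKM in mCherry (SD over 3 libraries a group; limma adjusted p 0.243). Mrpl40 averaged 9.59 ± 0.832 FPKM in hND6, against 6.69 ± 1.54 FPKM in mCherry (SD over 3 libraries a group; limma adjusted p 0.256). mCherry 3 was the highest mCherry library in both genes. Their log2 fold changes were 0.39 and 0.51, and 0.21 and 0.32 with the span trend removed. The whole span of Mrpl40 is covered by Gm28539 on the opposite strand, which lay between 1.93 and 2.51 FPKM in hND6, against 1.98 to 2.29 FPKM in mCherry.

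Mrpl1 was the large subunit member that lay lower in hND6 with the smallest p. Its protein is the counterpart of bacterial L1, which forms the mobile stalk at the exit of spent transfer RNA. Mrpl1 stood at 7.21, 7.71 and 6.70 FPKM in hND6, against 8.52, 8.64 and 8.94 FPKM in mCherry. The groups do not overlap, and the log2 fold change was -0.26 ± 0.09 (SE; limma adjusted p 0.279), and -0.17 with the span trend removed. The gene spans 57235 bases on chromosome 5 (96209493 to 96266727, plus strand), the longest span in the large subunit. The other 4 large subunit members below 0, Mrpl20, Mrpl39, Mrpl19 and Mrpl42, lay between -0.07 and -0.01.

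The large subunit members were also read by role. At the stalk that recruits the elongation factors, Mrpl12 stood at 12.5, 12.7 and 13.4 FPKM in hND6, against 7.59, 8.99 and 15.5 FPKM in mCherry, with mCherry 3 the highest of the 6 libraries (limma adjusted p 0.589). Mrpl10, which anchors Mrpl12, stood at 19.1, 17.5 and 19.5 FPKM in hND6, against 17.3, 14.8 and 16.9 FPKM in mCherry, a narrow separation (limma adjusted p 0.381). Around the exit tunnel, Mrpl22, Mrpl23 and Mrpl24 had log2 fold changes of 0.32, 0.14 and 0.09, which were 0.18, -0.0032 and -0.05 on the TPM scale. Mrpl45, which ties the ribosome to the inner membrane, averaged 5.89 ± 0.899 FPKM in hND6, against 5.26 ± 0.721 FPKM in mCherry (SD over 3 libraries a group), and its groups overlap. Near the site of peptide bond formation, Mrpl3, Mrpl16 and Mrpl27 had log2 fold changes of 0.02, 0.09 and 0.34 (-0.11, -0.05 and 0.20 on the TPM scale). Mrpl58, a release-type factor built into the large subunit that frees stalled chains, averaged 8.81 ± 0.477 FPKM in hND6, against 8.42 ± 0.769 FPKM in mCherry (SD over 3 libraries a group).

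The most abundant large subunit members after scaling by exon length were Mrpl42, Mrpl52 and Mrpl24. Mrpl42 stood at 29.5, 25.8 and 32.3 FPKM in hND6, against 29.4, 30.0 and 28.8 FPKM in mCherry, and its groups overlap fully. Mrpl24 stood at 25.7, 24.7 and 26.5 FPKM in hND6, against 25.2, 24.2 and 22.9 FPKM in mCherry, and hND6 2 lies below mCherry 1, so the groups overlap. The least abundant, Mrpl32 and Mrpl19, averaged 2.08 and 2.62 FPKM over the 6 libraries. Mrpl32, whose maturation by a protease of the inner membrane is a known step in ribosome assembly, stood at 2.56, 2.30 and 2.16 FPKM in hND6, against 1.19, 1.71 and 2.57 FPKM in mCherry. mCherry 3 again lay with hND6.

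**Figure D2:**
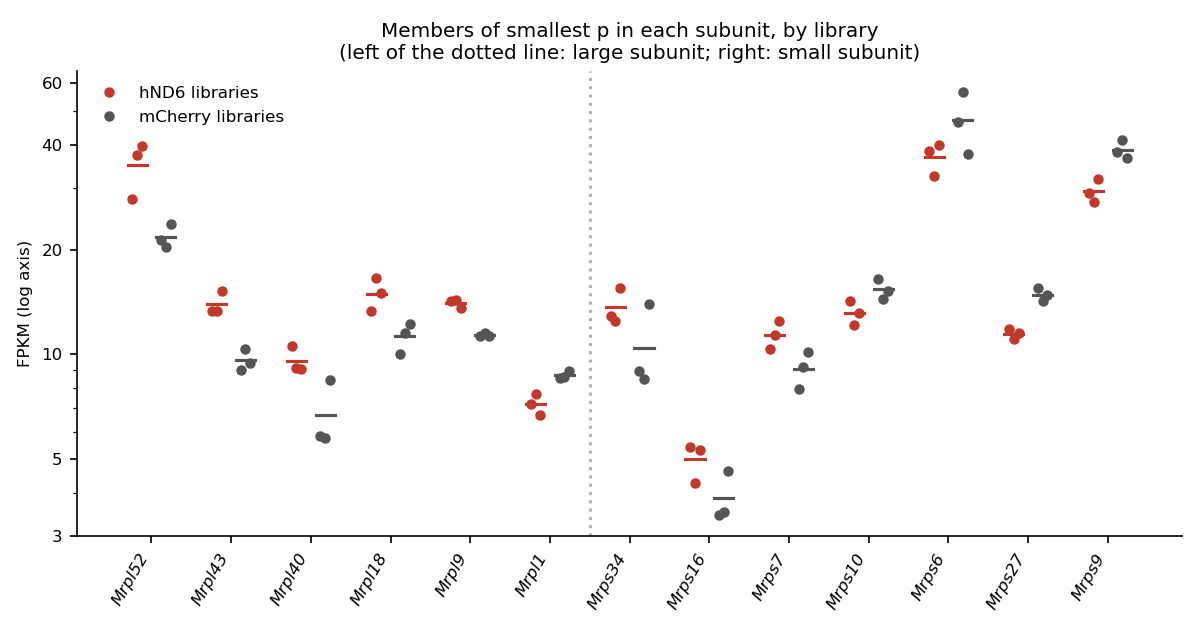
FPKM on a log axis in each library for the members of smallest p, hND6 left of mCherry for each gene, points for libraries and lines for group means. Large subunit genes stand left of the dotted line and small subunit genes right of it; Mrpl43, Mrpl52, Mrpl40, Mrpl18, Mrpl9 and Mrps7 are without overlap higher in hND6, and Mrpl1, Mrps10, Mrps27 and Mrps9 are without overlap lower.

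In the small subunit the members of smallest p lay lower in hND6. Mrps27 encodes a pentatricopeptide repeat protein, of a family that binds RNA, on chromosome 13 (99344786 to 99415562, plus strand). Mrps27 stood at 11.8, 11.1 and 11.5 FPKM in hND6, against 15.5, 14.2 and 14.8 FPKM in mCherry. The libraries of each group lie close together and the groups are apart, and limma put the log2 fold change at -0.36 ± 0.08 (SE; adjusted p 0.177). That fold change was -0.25 with the span trend removed.

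Mrps9, counterpart of bacterial S9, lies on chromosome 1 (42851233 to 42905682, plus strand). Mrps9 stood at 29.0, 27.3 and 31.9 FPKM in hND6, against 38.2, 41.2 and 36.6 FPKM in mCherry. Again no hND6 library reached an mCherry library. At -0.39 ± 0.09 (SE; limma adjusted p 0.178) its log2 fold change was the most negative of the tested members. That fold change was -0.31 with the span trend removed.

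Mrps10 and Mrps6, counterparts of bacterial S10 and S6, followed among those that lay lower. Mrps10 averaged 13.2 ± 1.01 FPKM in hND6, against 15.4 ± 1.01 FPKM in mCherry (SD over 3 libraries a group; limma adjusted p 0.347), with hND6 1 just under the lowest mCherry library. Mrps6 was the most abundant member, at 38.4, 32.5 and 40.1 FPKM in hND6, against 46.6, 56.6 and 37.7 FPKM in mCherry. The groups overlap through mCherry 3, and limma gave an adjusted p of 0.392 for the log2 fold change of -0.33 ± 0.16 (SE). Mrps28, counterpart of bacterial S1, stood at 33.5 ± 1.70 FPKM in hND6, against 36.5 ± 3.05 FPKM in mCherry (SD over 3 libraries a group). Its log2 fold change was -0.12 (limma adjusted p 0.553), and 0.05 with the trend of the fold change with gene span removed.

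Mrps7 was the small subunit member with the smallest p among those above 0. Its bacterial counterpart starts the assembly of the head of the small subunit. Mrps7 stood at 10.4, 11.3 and 12.5 FPKM in hND6, against 7.93, 9.23 and 10.1 FPKM in mCherry. The lowest hND6 library lay just above mCherry 3, the highest mCherry library, and the log2 fold change was 0.31 ± 0.12 (SE; limma adjusted p 0.310). Mrps16, next by p, stood at 5.42, 4.27 and 5.31 FPKM in hND6, against 3.46, 3.53 and 4.63 FPKM in mCherry. mCherry 3 lay above hND6 2 there, and limma gave 0.33 as log2 fold change at an adjusted p of 0.374. Mrps34, known from mice to be needed for a stable small subunit, stood at 12.9, 12.5 and 15.6 FPKM in hND6, against 8.94, 8.48 and 13.9 FPKM in mCherry. Here too mCherry 3 lay within the hND6 values, and the limma adjusted p was 0.402. Mrps14 had a log2 fold change of 0.26, and mCherry 3 was again the highest mCherry library. With the span trend removed the log2 fold changes were 0.11 for Mrps7, 0.13 for Mrps16 and 0.12 for Mrps14. That of Mrps34 was 0.40 with the deposited values and 0.04 with the span trend removed.

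Further small subunit members had smaller fold changes. Mrps12, counterpart of the bacterial protein at the decoding site, ranged from 9.10 to 12.4 FPKM in hND6, while mCherry 1 stood at 7.09 FPKM and mCherry 3 at 14.5 FPKM. That last library was above every hND6 library, and limma gave 0.21 as log2 fold change and 0.759 as adjusted p. The fold change of Mrps12 was -0.07 with the span trend removed. Mrps21, among the 3 most abundant members of the small subunit, stood at 35.4, 35.7 and 35.9 FPKM in hND6, against 31.9, 32.5 and 37.5 FPKM in mCherry. Mrps15 was without overlap higher by a small amount, at 18.7 ± 0.805 FPKM in hND6, against 17.5 ± 0.305 FPKM in mCherry (SD over 3 libraries a group), with a log2 fold change of 0.10 that became -0.05 on the TPM scale. The least abundant small subunit members, Mrps26 and Mrps25, averaged 3.11 and 3.52 FPKM over the 6 libraries.

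Bacterial S18 has 3 counterparts in mammals. Mrps18b and Mrps18c belong to the small subunit, and Mrps18a, despite its symbol, to the large one, as does Mrps30. The log2 fold changes were 0.15 for Mrps18a, -0.03 for Mrps18b, 0.05 for Mrps18c and 0.12 for Mrps30. On the TPM scale they were 0.008 for Mrps18a, -0.17 for Mrps18b and -0.09 for Mrps18c. Mrps30 stood at 4.16, 4.19 and 4.46 FPKM in hND6, against 3.79, 3.87 and 3.99 FPKM in mCherry, a small difference without overlap (limma adjusted p 0.618; -0.01 as log2 fold change on the TPM scale). With Mrps18a and Mrps30 counted in the large subunit, the medians were 0.15 for the large and -0.01 for the small subunit, still 0.16 apart.

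The counts were also taken by origin. In the large subunit 25 of 28 members with a counterpart lay above 0 (median 0.18), and 16 of 18 specific to mitochondria did (median 0.14). In the small subunit the counts were 9 of 18 (median 0.02) and 6 of 11 (median 0.01). On the TPM scale the large subunit counts were 16 of 28 with a counterpart and 9 of 18 without, and the small subunit counts 5 of 18 and 3 of 11. The large subunit medians there were 0.040 with a counterpart and 0.006 without. Their order was the other way with the span trend removed (0.039 and 0.109) and without mCherry 3 (0.22 and 0.29). Of 12 members with known human disease forms, 9 lay above 0, with a median of 0.20. On the TPM scale 7 of the 12 did (median 0.08), and with the span trend removed 9 did (median 0.05). Among these Mrpl44, a large subunit protein with an RNase III fold tied to cardiomyopathy, averaged 4.49 ± 0.122 FPKM in hND6, against 3.37 ± 0.702 FPKM in mCherry (SD over 3 libraries a group; limma adjusted p 0.328). Mrpl3, Mrps2, Mrps22 and Mrps25 lay between -0.04 and 0.02 on the log2 fold change scale, and between -0.16 and -0.11 on the TPM scale.

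Fold change followed gene span, the distance from start to end on the chromosome. Of the members under 5 kb, 25 of 26 lay higher, with a median of 0.32. From 5 to 20 kb 28 of 39 did (median 0.10), and from 20 kb up 3 of 10 did (median -0.12). On the TPM scale the counts were 21 of 26, 11 of 39 and 1 of 10, and without mCherry 3 they were 26 of 26, 33 of 39 and 3 of 10. All tested protein-coding genes showed the same order, with 83.6% of 1583 genes higher under 5 kb (median 0.28), 65.6% of 4478 genes from 5 to 20 kb (0.09) and 30.9% of 7617 genes from 20 kb (-0.11). The 5 members over 50 kb, Mrps28, Mrps27, Mrpl1, Mrps9 and Mrps6, all lay below 0. Across members Spearman's rho between log2 fold change and span was -0.67 (n = 75), and across protein-coding genes it was -0.54 (n = 13678). The genes share the same 6 libraries and are not independent, so these are descriptions.

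**Figure D3:**
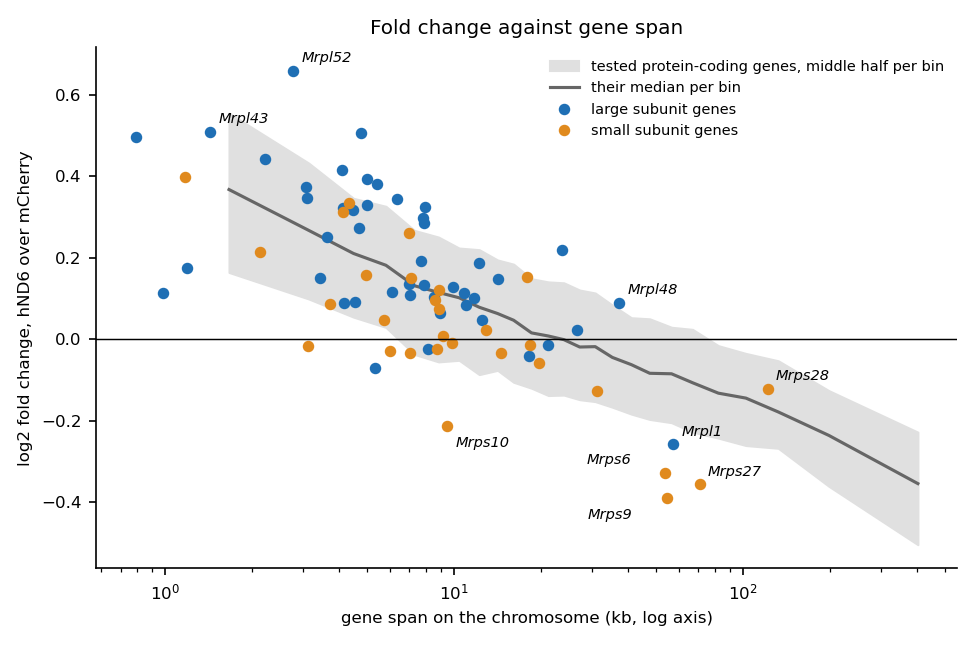
Log2 fold change of hND6 over mCherry against gene span in kb on a log axis, with blue points for large and orange points for small subunit members. The line is the median of tested protein-coding genes per bin of span and the band holds the middle 50% of them; with the deposited values 25 of 26 members under 5 kb are above 0 (21 of 26 on the TPM scale) and the 5 members over 50 kb are below 0.

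The subunits were also compared within bands of span. The median span was 6644.5 bases for the large and 8872 bases for the small subunit members tested. Within each band of span the large subunit median was the higher. It was 0.33 (19 of 19 higher) against 0.21 in the small subunit (6 of 7) under 5 kb, 0.12 (19 of 22) against 0.01 (9 of 17) from 5 to 20 kb, and 0.02 (3 of 5) against -0.33 (0 of 5) from 20 kb. The band from 20 kb has no upper limit, so span is not matched within it. Its small subunit members Mrps28, Mrps27, Mrps9 and Mrps6 are over 50 kb, and Mrpl1 alone of its large subunit members is. With the span trend removed from each library, 30 of 46 large and 8 of 29 small subunit members lay higher, the medians were 0.054 and -0.07, and the difference between them was 0.13. Mrps28 has 783 bases of exon in a span of 121773 bases and averaged 35.0 FPKM over the 6 libraries. Whether reads in introns entered the FPKM is not stated in the sources used here and was not tested, so levels are compared between genes with that limit.

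Summed over members, the large to small subunit ratio was higher in every hND6 library than in every mCherry library. The summed large subunit FPKM was 509, 521 and 554 in hND6 1 to 3, against 430, 439 and 500 in mCherry 1 to 3. The summed small subunit FPKM was 351, 334 and 372 in hND6, against 352, 367 and 375 in mCherry, where the groups overlap. The ratio was 1.45, 1.56 and 1.49 in hND6, against 1.22, 1.19 and 1.33 in mCherry. A ratio within a library does not change with a common scale factor. Among members under 20 kb it was 1.89, 2.01 and 1.91 in hND6, against 1.72, 1.75 and 1.73 in mCherry. No p is given, since the members were chosen with results of these libraries known.

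The mean log2 level gives every member the same weight. Large minus small, it was 0.05, 0.11 and 0.03 in hND6, against -0.14, -0.14 and -0.08 in mCherry, a difference of 0.18. With the span trend removed it was 0.04, 0.08 and -0.01 in hND6, against -0.10, -0.09 and -0.08 in mCherry. The groups do not overlap in either form, and hND6 3 lay closest to mCherry with the trend removed.

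**Figure D4:**
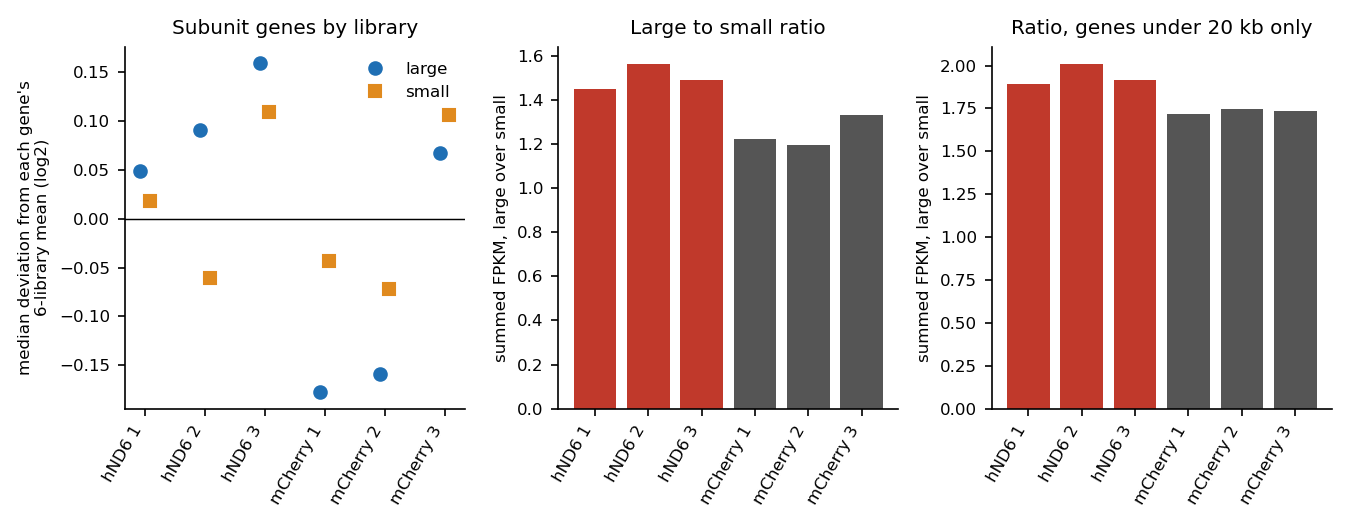
Left, the median deviation of large and small subunit members from each gene's mean over the 6 libraries (log2), and middle and right, the ratio of summed FPKM, large over small, for all members and for those under 20 kb. The ratios of the 3 hND6 libraries (1.45 to 1.56) all lie above those of the 3 mCherry libraries (1.19 to 1.33), while in the left panel mCherry 3 lies with hND6.

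The library mCherry 3 differed from the other mCherry libraries in the level of the members. The median deviation of large subunit members from their mean over the libraries was 0.05, 0.09 and 0.16 (log2) in hND6, against -0.18, -0.16 and 0.07 in mCherry. For members under 5 kb it was 0.04, 0.13 and 0.21 in hND6, against -0.34, -0.31 and 0.10 in mCherry. mCherry 3 thus lay with the hND6 libraries in both. Of the 75 tested members, 31 were highest in hND6 3 and 16 in mCherry 3, while 30 were lowest in mCherry 1 and 24 in mCherry 2. Without mCherry 3, 62 of 75 members lay higher. At an unadjusted p below 0.05 in limma 23 members did, 30.7% of the 75 tested and 19 of them in the large subunit, against 11.4% of all tested genes in that fit. 0 members passed the adjusted threshold there either, and the smallest adjusted p was 0.0583, for Mrpl40.

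mCherry 3 also stood apart over all genes, and markers of other tissues varied between libraries. It lay at -65.0 on the leading principal component, which held 46.9% of the variance, with hND6 1 at -23.3 and the other 4 libraries between 17.0 and 34.4. The summed FPKM of 8 forebrain neuron markers was 197, 34.3 and 58.7 in hND6, against 40.7, 27.1 and 611 in mCherry, with Neurod6 at 0 in at least 1 library and 1 of 8 markers higher in hND6. That of 6 photoreceptor markers was 5.51, 180 and 1.93 in hND6, against 6.07, 2.47 and 3.19 in mCherry, with Crx, Gnat1 and Pde6b at 0 in at least 1 library. The 6 red blood cell markers summed to 1365 to 2603 in hND6 and 180 to 467 in mCherry (6 of 6 higher), and the 8 plasma cell markers to 139 to 384 in hND6 and 8.42 to 19.0 in mCherry (8 of 8 higher). The markers of the labelled tissue were high: 8 myelin genes summed to 7051 to 8202 FPKM in hND6, against 4960 to 7439 FPKM in mCherry, and 6 astrocyte genes to 2023 to 2452 FPKM in hND6, against 1452 to 1981 FPKM in mCherry. The 6 microglia markers summed to 287 to 337 FPKM in hND6, against 197 to 297 FPKM in mCherry, and the 5 endothelium markers to 38.9 to 48.0 FPKM in hND6, against 43.7 to 47.5 FPKM in mCherry. The part of these cell types in the members' fold changes was not tested. Reads assigned to genes ran from 20253637 to 34057682 in hND6 and from 25718356 to 34758873 in mCherry.

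For the cytosolic ribosomal protein genes the values were larger. Of 96 genes by symbol, 82 were tested and 82 of these lay above 0, also on the TPM scale, with a median log2 fold change of 0.58 (0.43 on the TPM scale, 0.32 with the span trend removed). 0 passed the adjusted threshold in limma, and 75 (91.5%) lay higher at an unadjusted p below 0.05, against 9.11% of all tested genes. In 77 (93.9%) the groups did not overlap, all higher in hND6, against 12.6% of all tested genes. These counts are of the deposited values. The median span of the cytosolic genes was 2987 bases.

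Some mitochondrial ribosomal proteins carry other symbols. Of the 5 found and tested, 3 lay higher, with a median log2 fold change of 0.36. That median was 0.23 on the TPM scale (3 of 5 higher) and 0.15 with the span trend removed (4 of 5 higher). Aurkaip1, a small subunit protein, stood at 22.3, 24.7 and 26.1 FPKM in hND6, against 14.1, 16.4 and 16.4 FPKM in mCherry, with 0.62 ± 0.10 (SE) as log2 fold change and 0.143 as limma adjusted p. Ptcd3, a pentatricopeptide repeat protein of the small subunit like Mrps27, stood at 14.7, 14.2 and 13.4 FPKM in hND6, against 17.9, 18.3 and 17.2 FPKM in mCherry, with -0.32 as log2 fold change and 0.179 as limma adjusted p. Chchd1, another small subunit protein, had the largest fold change of the 5, at 15.3, 14.9 and 17.4 FPKM in hND6, against 7.75, 10.2 and 12.5 FPKM in mCherry, with 0.64 ± 0.17 (SE) as log2 fold change and 0.207 as limma adjusted p. The groups of these 3 genes do not overlap, 2 higher and 1 lower in hND6, where 12.6% of all tested genes did so higher and 10.2% lower. Gadd45gip1, of the large subunit, had 0.36 as log2 fold change (limma adjusted p 0.502) and overlapping groups. Aurkaip1 spans 1780 bases, Chchd1 1420 bases and Ptcd3 28111 bases. Dap3, the GTP-binding protein of the small subunit, averaged 7.15 ± 0.0497 FPKM in hND6, against 7.20 ± 0.336 FPKM in mCherry (SD over 3 libraries a group).

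The genes that work with the mitochondrial ribosome were not called either. Of 13 translation factors 7 lay higher (median log2 fold change 0.01), of 26 assembly factors 12 did (median -0.02) and of 22 aminoacyl-tRNA synthetases and amidotransferase genes 7 did (median -0.09). 0 genes of these lists passed the adjusted threshold in limma, and of the 61 genes 6 lay higher and 6 lower at an unadjusted p below 0.05, which is 9.84% each way, against 9.11% and 6.05% of all tested genes. On the TPM scale 3 lay higher and 17 lower, where 3.36% and 13.5% of all tested genes did. Gfm2, the factor that splits used ribosomes, averaged 7.93 ± 0.398 FPKM in hND6, against 10.3 ± 0.379 FPKM in mCherry (SD over 3 libraries a group; limma adjusted p 0.193), and the initiation factor Mtif2 6.98 ± 0.250 FPKM in hND6, against 8.62 ± 0.285 FPKM in mCherry (limma adjusted p 0.241). Mpv17l2, an assembly factor, averaged 8.78 ± 0.476 FPKM in hND6, against 5.82 ± 0.725 FPKM in mCherry (limma adjusted p 0.163). C1qbp, a matrix protein that assists assembly, averaged 21.7 ± 2.51 FPKM in hND6, against 16.2 ± 1.74 FPKM in mCherry (limma adjusted p 0.243). Among the synthetases Kars, shared by cytosol and mitochondria, lay 0.42 higher on the log2 scale (limma adjusted p 0.183), and Fars2, with a span of 420182 bases, lay at -0.43 (limma adjusted p 0.199).

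**Figure D5:**
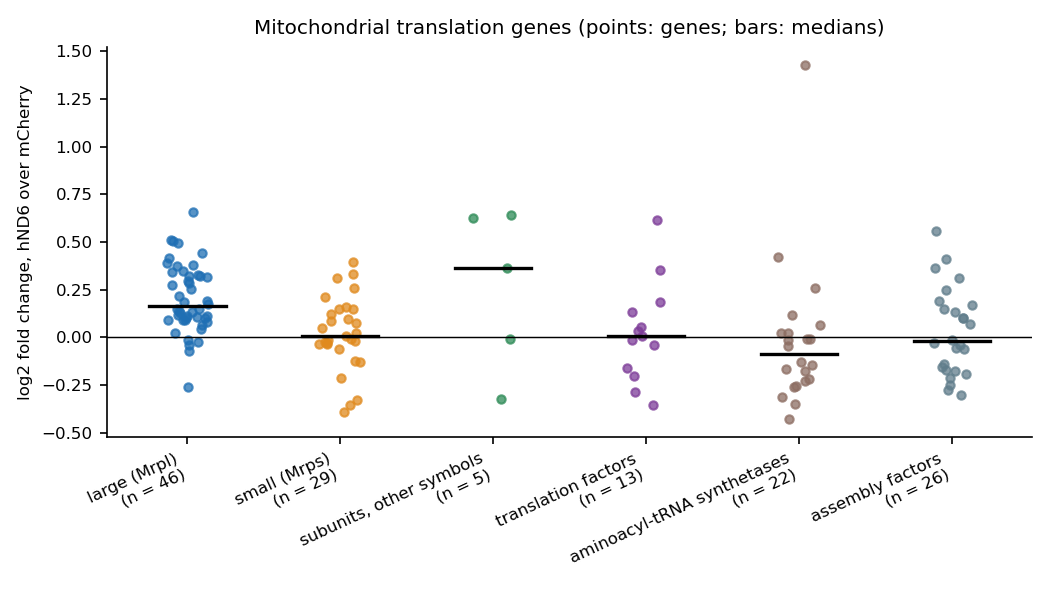
Log2 fold change of hND6 over mCherry for each tested gene of mitochondrial translation, by list, with bars for the medians (0.16, 0.01, 0.36, 0.01, -0.09 and -0.02 from left to right). The lone high synthetase point is Lars2, at 1.43.

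Lars2, the mitochondrial leucine synthetase, stood at 20.4, 105 and 26.7 FPKM in hND6, against 14.8, 13.0 and 14.3 FPKM in mCherry. The groups do not overlap, and hND6 2 is far above the other 5 libraries (limma adjusted p 0.319). The RNAs of the mitochondrial ribosome were also highest in that library, although the libraries had been depleted of ribosomal RNA. mt-Rnr1, the small subunit RNA, stood at 46.0, 251 and 43.6 FPKM in hND6, against 26.7, 6.51 and 42.3 FPKM in mCherry. mt-Rnr2, the large subunit RNA, stood at 30.8, 184 and 29.8 FPKM in hND6, against 19.5, 4.27 and 20.9 FPKM in mCherry. Because of that depletion these values are not read as levels of the ribosome.

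Several members share a start region with a neighbour on the other strand. Mrps11 and Mrpl46, a small and a large subunit gene, start 30 bases apart, in the last window printed above. Their log2 fold changes were -0.01 and 0.13. Mrpl43 starts 116 bases from Twnk, the helicase of mitochondrial DNA, with log2 fold changes of 0.51 for Mrpl43 and 0.09 for Twnk. Mrps12 starts 232 bases from Sars2, the mitochondrial serine synthetase, with 0.21 for Mrps12 and -0.04 for Sars2. Mrpl49 starts 216 bases from Fau, which encodes a cytosolic ribosomal protein, with 0.32 for Mrpl49 and 0.58 for Fau. Mrpl18 starts 37 bases from Tcp1, a subunit of the cytosolic chaperonin, with 0.39 for Mrpl18 and 0.26 for Tcp1. Whether such neighbours differed from each other was not tested.

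Copies elsewhere in the genome limit some members. Over GENCODE vM21 transcripts, 19 members have a stretch of at least 200 bases at 95% identity or more in a transcript of another gene. Among them is Mrps33, with 321 bases at 99.7% identity to the processed pseudogene Gm5776, itself at 3.27 FPKM, and a log2 fold change of 0.01. The others include Mrpl22, Mrpl23, Mrpl27, Mrpl42, Mrpl48, Mrps6, Mrps10, Mrps16 and Mrps36, whose reads may be split with their copies. Mrps6 shares 306 bases at 100% identity with Gm49711, and Mrps10 shares 558 bases at 97.8% identity with AC154457.3. Mrpl43, Mrpl52, Mrpl9, Mrpl1, Mrps27, Mrps9 and Mrps7 have none of this kind.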

How the data were processed

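The values the authors deposited are FPKM, per the labels, together with a gene table of positions, exon lengths and biotypes. Of tools, STAR, HTSeq, Trim Galore and CASAVA 1.4 are named without roles in the submitters' processing notes, as are the builds GRCm38 and mm10, and the kit was a stranded total RNA kit per the labels' protocols. The single-library tables held the same 315816 values as the combined one. FPKM times exon length gave whole reads (within 0.1) for at least 99.99% of the values above 0, which gave the depths.

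hND6 was tested against mCherry in limma 3.58.1 (R 4.3.3) on log2(FPKM + 0.5), with an intensity trend, for the 16157 genes averaging 0.5 FPKM or more. P-values were adjusted over all of these by Benjamini-Hochberg, and the threshold was 0.05. The pseudocount understates changes of low genes. The test was checked on simulated data with changes larger than that of any tested member, so the check does not cover changes of the members' size. Medians over members are descriptions without a test. Named are the 5 members of smallest p per subunit and direction, the most and least abundant, the untested, those with human disease forms, those whose protein sits in the other subunit than the symbol says or descends from S18, and the 2 genes of smallest p per related list. From these rules a selection is given, and the members given by role, the neighbours, the genes with copies, Chchd1, Gadd45gip1, Dap3, Lars2 and some members without overlap were added after their values were seen. The members, lists and alternatives were chosen with earlier results of these data known.

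Alternatives were other pseudocounts, filters, scalings, limma options, library weights, a replicate block, voom on recovered reads, removal of each library's trend with gene span (a spline with 5 degrees of freedom) and leaving out libraries.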

Additional observations from a re-analysis of the deposited data

How the results depend on the processing

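Under the 20 alternatives 0 members passed the adjusted threshold, while the count over all genes, 7 with all libraries, was 1 with no filter, 0 with a replicate block (1789 genes at an unadjusted p below 0.05), 0 with voom, 1 without mCherry 3 and hND6 1, and 0 (without mCherry 2) to 131 (without mCherry 3) when 1 library was left out. Deviations of same-numbered libraries from their group means had correlations r of -0.42, 0.36 and -0.20. With 3 libraries a group these values cannot decide whether the numbers pair libraries, and the labels do not say. Members higher in hND6, 56 of 75, numbered 33 on the TPM scale, 38 with the span trend removed and 52 to 63 when 1 library was left out. The large subunit median of 0.16 was 0.025 on the TPM scale, 0.054 with the span trend removed, 0.28 without mCherry 3 and hND6 1, and 0.13 to 0.23 when 1 library was left out. The small subunit median of 0.01 was -0.13 on the TPM scale, -0.07 with the trend removed, 0.12 without mCherry 3 and hND6 1, 0.11 without mCherry 3 and -0.053 without hND6 3. Large minus small stayed between 0.10 and 0.20. The causes of these shifts were not tested. Of the tested members 29 lay above 0 and 8 below 0 in every setting, and 38 changed sign in at least 1. Depth limits Mrps36 most among the tested members, with 591 reads in all.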
